A study of Mus musculus with 6 samples.

Results

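CpG methylation was described around the transcription starts of 10 imprinted genes that carry their methylation on the copy inherited from the mother, namely Peg3, Plagl1, Snrpn, Zrsr1, Impact, Kcnq1ot1, Mest, Nnat, Peg10 and Nap1l5. The loci were chosen by gene name, and their members were all covered CpG sites within 2 kb of any annotated transcription start of these genes, which gave 275 of the 890041 sites measured. Each of the 10 loci had sites, from 7 at Peg3 to 81 at Plagl1. The genes are often spoken of as having 1 promoter, but the annotation lists 54 starts for them in 18 separate start windows, of which 14 held sites.

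Bisulfite sequencing of a reduced representation of the genome, which reads the ends of DNA fragments cut at CCGG, was carried out in 6 female C57BL/6JRj mice aged 4.5 months. In the STD group 3 mice lived in standard housing, and in the ENR group 3 mice lived in an enriched environment for 3 months. Mice of both groups were housed in company, in ENR in larger groups and in a large enclosure with toys. Each library held the microdissected dentate gyrus of a single mouse, a tissue that mixes neurons, glia and other cells. Values are the percentage of reads with a methylated cytosine at a site. Read numbers per site are unknown, so no interval for counting error is given, and 3 mice per group limit the precision of every comparison.

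Genomic imprinting silences a gene on the copy from one parent. At the genes described here a CpG-rich control region is methylated in the egg, the mark survives the reprogramming of the early embryo with the help of the zinc finger protein ZFP57 and its partner TRIM28, and the gene is then transcribed from the unmethylated paternal copy. In a tissue where every cell keeps this state and both copies are read equally, such a region would read 50%, and this level serves as the point of reference for each locus. Several of these genes are strongly expressed in the brain, and several lie inside the intron of another gene.

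Sites were grouped into read blocks, each of which holds the sites on 1 strand whose reads start at the same CCGG. Sequences of read blocks are shown because the sites of most blocks, though not of Mest block 1, had similar values within a library, as described further on. Each line runs from the cut site, in the direction of the read, to the last covered CpG or to 30 bases where the block lies in an untranslated region, and capitals mark the CpGs that were measured. The sequence was taken from the GRCm38 (mm10) reference. The 4 Kcnq1ot1 blocks are shown for a change in methylation over a short distance. The Nap1l5 and Peg10 pairs are the opposite strands of a single CCGG fragment, and Plagl1 blocks 7 and 8 start at cut sites 74 bases apart on the same strand, with values that differed within a library. Plagl1 block 10, Mest block 1 and Snrpn block 5, like Nap1l5 block 4, hold a covered CpG in the hexamer that ZFP57 binds. Peg3 and Nnat are given for the block that varied most between libraries, and Zrsr1 for its most methylated block.
Kcnq1ot1 block 1, chr7:143295375-143295438, plus strand: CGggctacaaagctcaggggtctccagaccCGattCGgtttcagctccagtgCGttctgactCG
Kcnq1ot1 block 2, chr7:143295405-143295443, minus strand: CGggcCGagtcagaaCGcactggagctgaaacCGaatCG
Kcnq1ot1 block 3, chr7:143295469-143295509, plus strand: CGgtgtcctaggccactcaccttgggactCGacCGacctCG
Kcnq1ot1 block 4, chr7:143295570-143295618, minus strand: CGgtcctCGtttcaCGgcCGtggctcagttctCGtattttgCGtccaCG
Nap1l5 block 3, chr6:58906768-58906833, plus strand: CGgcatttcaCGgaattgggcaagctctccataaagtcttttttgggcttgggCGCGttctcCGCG
Nap1l5 block 4, chr6:58906821-58906878, minus strand: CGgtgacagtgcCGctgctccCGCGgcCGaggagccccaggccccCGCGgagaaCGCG
Peg10 block 1, chr6:4747355-4747384, plus strand: CGgactccCGatacaCGCGtttccaacttg
Peg10 block 2, chr6:4747461-4747490, minus strand: CGgacCGcagccCGCGcagcagacctaggc
Plagl1 block 7, chr10:13090813-13090842, plus strand: CGgggctggggCGttctccaacctcactCG
Plagl1 block 8, chr10:13090887-13090916, plus strand: CGggctCGCGgctatCGggactggagagca
Plagl1 block 10, chr10:13091051-13091112, minus strand: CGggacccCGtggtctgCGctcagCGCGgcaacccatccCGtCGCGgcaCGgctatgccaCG
Mest block 1, chr6:30732801-30732853, plus strand: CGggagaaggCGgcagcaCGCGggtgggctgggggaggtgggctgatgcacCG
Snrpn block 5, chr7:60005156-60005229, minus strand: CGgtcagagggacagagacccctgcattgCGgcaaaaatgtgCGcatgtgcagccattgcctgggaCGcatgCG
Peg3 block 2, chr7:6731752-6731819, plus strand: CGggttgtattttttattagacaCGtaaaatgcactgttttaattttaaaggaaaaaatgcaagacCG
Zrsr1 block 7, chr11:22972227-22972239, plus strand: CGgccatgccaCG
Nnat block 2, chr2:157560417-157560478, minus strand: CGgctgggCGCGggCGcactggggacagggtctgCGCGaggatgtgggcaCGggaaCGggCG

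Both libraries numbered 3 were low at most loci. Averaged over the 10 loci, methylation was 32.7, 31.1 and 23.3% in STD replicates 1 to 3 and 38.8, 37.8 and 15.5% in ENR replicates 1 to 3. ENR replicate 3 was the lowest of all 6 libraries at 8 of 10 loci, and within its own group it was lowest at 9 of 10. STD replicate 3 was the lowest of its group at 8 of 10 loci. The same libraries were low elsewhere, since at 69916 other sites with a mean of 30% to 70% the library means were 54.2, 53.4 and 44.5% in STD and 53.6, 52.6 and 37.9% in ENR. Over all 890041 sites the range was 21.3% in ENR replicate 3 to 24.3% in STD replicate 1. Among 2163 other autosomal start windows with a mean of 30% to 70%, ENR replicate 3 was lowest in 47.8% and STD replicate 3 in 22.7%. Differences between the groups at the loci are therefore given with and without these libraries.

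**Figure D1:**
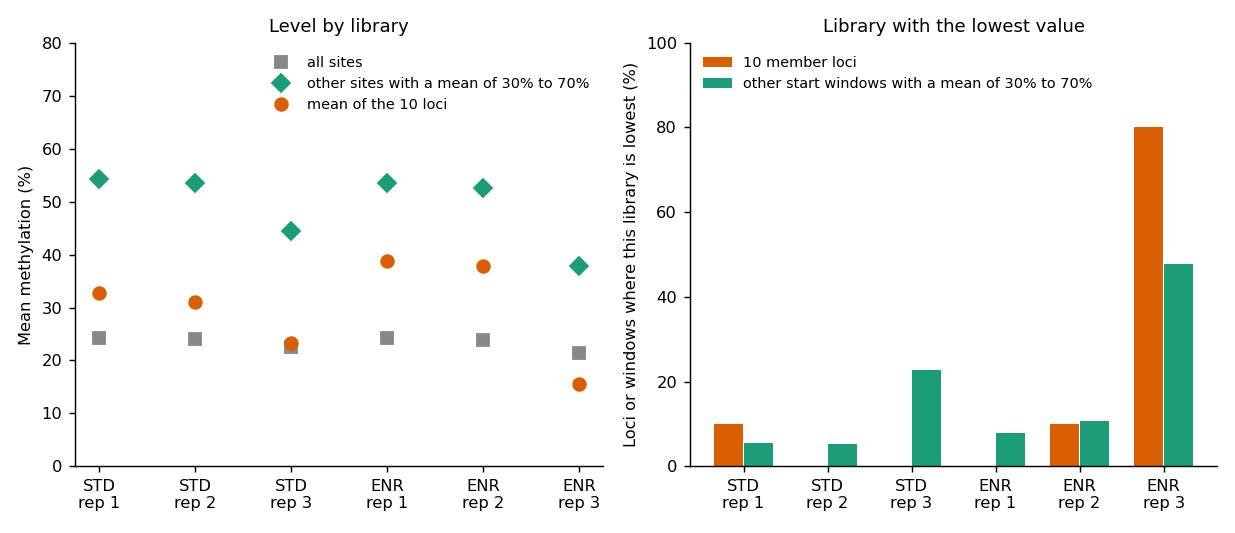
Left, mean methylation (%) of each library over all sites, over other sites with a mean of 30% to 70%, and over the 10 imprinted loci. Right, percentage of loci or of other start windows in which a library had the lowest value of the 6; ENR replicate 3 was lowest at 8 of the 10 loci and in 47.8% of the other windows.

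Sites at intermediate methylation were common at these loci. A site mean over 6 libraries of 30% to 70% was found at 147 of 275 member sites (53.5%), against 3.71% of the 588875 sites within 2 kb of any transcription start. Only 16.4% of the member sites lay below 10%, where 85.4% of the sites near all starts lay. The share per library ran from 26.2% of member sites in ENR replicate 3 to 58.2% in STD replicate 1, and from 3.41% to 4.36% near all starts. The members were unequal, for all 23 sites of Nap1l5 and all 7 of Peg3 were intermediate, as were 56 of 81 at Plagl1, 10 of 14 at Mest, 10 of 21 at Kcnq1ot1, 31 of 69 at Zrsr1, 5 of 17 at Nnat, 4 of 14 at Snrpn and 1 of 14 at Peg10, and none of the 15 at Impact.

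All 10 loci averaged below 50% over the 6 libraries. This mean was highest at Peg3, at 42.1%, and lowest at Impact, at 6.78%. The mean size of the departure in single libraries was smallest at Mest (11.3 points), followed by Nap1l5 (12.3), Zrsr1 (12.9) and Peg3 (14.0), and largest at Impact (43.2). Of the 60 values of a locus in a library, 53 lay below 50% and 14 lay between 40% and 60%. Snrpn, Peg10, Plagl1, Impact, Kcnq1ot1 and Zrsr1 were below 50% in every library, whereas Peg3 was below it in 3 of 6. These locus means pool all covered sites, including nearly unmethylated stretches at Plagl1 and Kcnq1ot1. The Plagl1 window with 53 sites read 59.9% and 59.1% in ENR replicates 1 and 2. At Kcnq1ot1 the 10 sites farther from the start read 52.5% in STD replicate 2 and 70.4% and 83.8% in ENR replicates 1 and 2. The other libraries were below 50% at both stretches. Relative to 50%, the libraries ran from -28.5 to 3.45 percentage points at Mest, from -26.7 to 6.66 at Nap1l5 and from -44.9 to 10.3 at Nnat. The departure ran from -19.9 to -4.32 points at Zrsr1, from -25.4 to -5.21 at Plagl1, from -36.6 to -10.1 at Kcnq1ot1, from -46.5 to -1.93 at Peg10 and from -49.0 to -37.4 at Impact. ENR replicate 3 was the farthest below 50% at each of these but Impact. In order of level, Peg3 (42.1% ± 18.1, SD, n = 6), Mest (40.6% ± 12.3), Nap1l5 (39.97% ± 11.5), Zrsr1 (37.1% ± 6.58) and Plagl1 (34.0% ± 7.72) were followed by Peg10 (27.1% ± 15.6), Kcnq1ot1 (24.8% ± 10.4), Nnat (23.9% ± 21.0), Snrpn (22.2% ± 14.5) and Impact (6.78% ± 3.66). Each neighbouring pair in this order down to Snrpn differed by less than the spread between libraries.

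**Figure D2:**
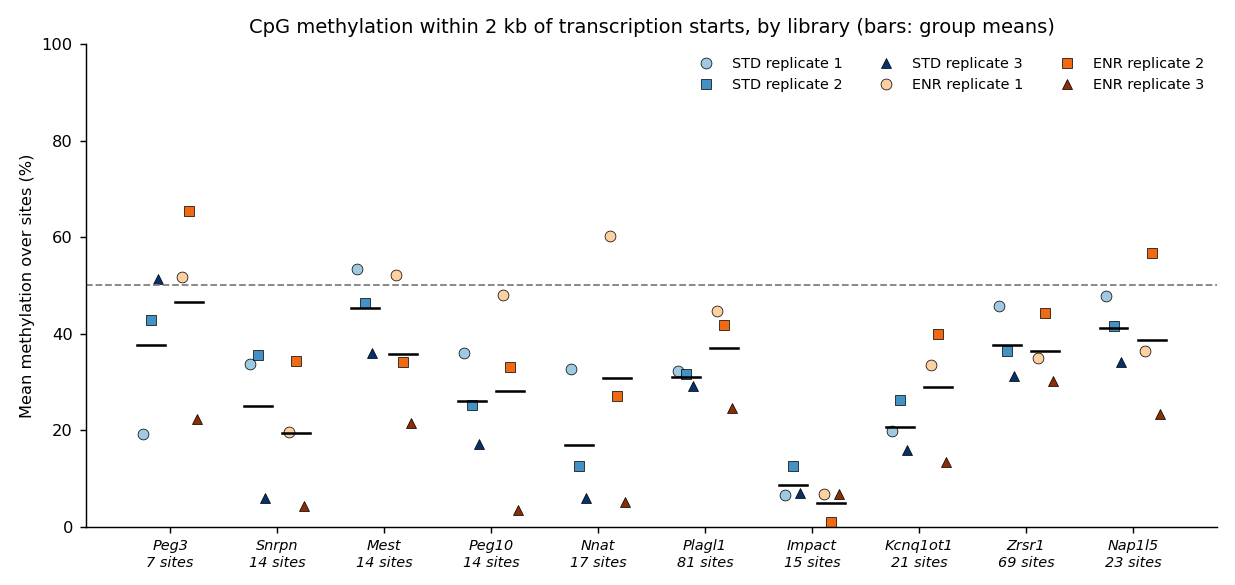
Mean methylation (%) over the covered sites of each of the 10 loci in each library, with STD in blue and ENR in orange, bars for the group means (n = 3) and a dashed line at 50%. STD and ENR libraries overlapped at all 10 loci, and Impact lay below 13% in every library.

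Peg3 encodes a large zinc finger protein active in the brain and shares its start region with Usp29, which is transcribed the other way. Its 7 sites at chr7:6730280-6731818 fell on 2 read blocks, one in untranslated exon sequence and one upstream in an exon of Usp29. Locus means were 19.2, 42.8 and 51.2% in STD replicates 1 to 3 and 51.6, 65.5 and 22.3% in ENR replicates 1 to 3. These spanned both sides of 50% in each group, with a departure of -30.8 percentage points in STD replicate 1 and 15.5 in ENR replicate 2. The upstream block, shown above, read 8.15, 52.2 and 74.1% in STD and 33.8, 73.8 and 25.3% in ENR. Mouse to mouse variation was thus wider there than in the exonic block, which ran from 20% to 65.1%.

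Plagl1, also called Zac1, encodes a zinc finger transcription factor that restrains the cell cycle, and it held the largest number of covered sites. Its start windows split sharply. Around the most upstream start, where 27 sites lay at chr10:13060407-13061161, the window read 5.29, 4.95 and 7.67% in STD and 15.2, 7.81 and 5.04% in ENR, and 22 of the 27 sites averaged below 10%. The next window, with 8 starts and 53 sites in the 567 bp of chr10:13090623-13091189, read 46.0, 45.4 and 39.6% in STD and 59.9, 59.1 and 34.6% in ENR. All 53 of these sites were intermediate, which made this the longest run of intermediate sites among the 10 loci. The third window held 1 site, in an intron, at 27.6, 16.4 and 55.4% in STD and 43.6, 43.9 and 23.2% in ENR.

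Within the intermediate stretch of Plagl1, nearby read blocks behaved differently between mice. Block 8, in untranslated exon sequence, was the steadiest, with 49.6, 52.6 and 50.4% in STD and 44.7, 49.2 and 53.3% in ENR (SD 3.05 points over 6 libraries). Block 7, whose cut site lies 74 bases away on the same strand, read 42.5, 29.0 and 19.4% in STD and 82.5, 44.7 and 0% in ENR (SD 27.9). In ENR replicate 3, which read 0% at the 9 sites of block 7, block 8 was at its highest level. The low value of this library was thus not shared by all blocks of the locus, and at block 12, in the intron, ENR replicate 3 was the highest of the 6 with 69.2%.

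Snrpn encodes a protein of the spliceosome that is made chiefly in neurons, and its control region lies in the imprinted domain of Prader-Willi and Angelman syndromes. The 14 sites at chr7:60004580-60005229 read 33.7, 35.5 and 5.87% in STD replicates 1 to 3 and 19.7, 34.2 and 4.31% in ENR replicates 1 to 3. Both libraries numbered 3 were therefore more than 40 points below 50%, and the library nearest to it, STD replicate 2, departed by -14.5 points. Averaged over libraries, the pair of blocks farthest into the intron read 36.0% and 37.2% and the next, with 1 site, 23.7%, whereas the block at the start, which also covers coding sequence of Snurf, read 16.3% and the one just upstream 15.1%. This order was not kept in every library. In ENR replicate 2 the start block read 43.0%, the pair farthest into the intron 24.7% and 51.1%, and the block with 1 site 8.51%.

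Zrsr1 is a retrogene that encodes a relative of the splicing factor U2AF and lies inside an intron of Commd1. Across 69 sites at chr11:22971902-22974253 the locus read 45.7, 36.3 and 31.1% in STD and 34.9, 44.4 and 30.1% in ENR, the narrowest spread of the 9 loci outside Impact (SD 6.58 points over 6 libraries). This even mean hid a peak. Blocks 5 to 8, which lie next to each other in the untranslated exon, averaged 73.4, 56.7, 84.6 and 67.8%, and they held 6 of the 7 sites of the 10 loci with a mean of 70% or more. In the coding sequence downstream, blocks 15 to 19 averaged between 15.5% and 29.8%. Block 7 read 92.8, 91.3 and 86.7% in STD and 90.1, 93.3 and 53.5% in ENR, with ENR replicate 3 the lowest. The other 3 blocks varied too, since blocks 6 and 8 read 50% and 40% in ENR replicate 1 and 47.5% and 56.8% in ENR replicate 2, where block 11 read 61.4% and 68.0%.

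Kcnq1ot1 is a long non-coding RNA transcribed against Kcnq1 from within one of its introns, and it silences neighbouring genes on the paternal copy. All 21 sites lay in its exon, 931 to 1174 bp downstream of the start. The 10 sites farther from the start, at chr7:143295375-143295443, read 39.3, 52.5 and 31.9% in STD and 70.4, 83.8 and 28.2% in ENR. The 11 sites nearer the start, at chr7:143295469-143295618, read 2.25, 2.50 and 1.27% in STD and 0% in all 3 ENR libraries. The change from 51.0% to 1.00% on average took place across a gap of 26 bp between neighbouring covered sites, and it was present in every library. Blocks 1 and 2 above lie on the methylated side and blocks 3 and 4 on the other. As a mixture of these parts, the locus mean of 24.8% describes neither.

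Impact encodes a protein that restrains the kinase Gcn2 and so keeps translation going under amino acid shortage. It was the locus farthest from 50%. The 11 sites around its upstream start, at chr18:12955747-12955932, read 4.05, 3.97 and 3.85% in STD replicates 1 to 3 and 3.88, 1.43 and 2.17% in ENR replicates 1 to 3, and 10 of them averaged below 10%. In the intron, 884 to 948 bp downstream of a start, 4 sites on a single read block read 13.4, 36.4 and 15.6% in STD and 14.8, 0 and 19.1% in ENR. No site of Impact was intermediate, so none of the covered sites around its starts lay near 50%.

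Mest encodes an enzyme of the hydrolase fold in the endoplasmic reticulum. Its 14 sites averaged 53.5, 46.4 and 36.0% in STD and 52.1, 34.0 and 21.5% in ENR. The window of the middle starts, at chr6:30732801-30735330, was close to 50% on average, with 56.2, 44.1 and 42.8% in STD and 67.9, 55.5 and 37.3% in ENR. The downstream window, at chr6:30738858-30739334, read 50.7, 48.8 and 29.2% in STD and 36.3, 12.6 and 5.61% in ENR. Its 3 sites on block 3 were the most divided, at 70.4, 64.9 and 40% in STD and 57.1, 0 and 0% in ENR.

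Nnat encodes neuronatin, a small membrane protein of the endoplasmic reticulum in neurons, and lies in an intron of Blcap. The locus, at chr2:157558247-157561859, read 32.6, 12.5 and 5.97% in STD and 60.3, 27.2 and 5.13% in ENR, the widest spread of the 10 loci (SD 21.0 points over 6 libraries). A single library set much of that spread. On block 2, which carries 9 exonic sites, ENR replicate 1 read 93.5%, against 42.8, 9.90 and 4.24% in STD and 20.5 and 4.30% in ENR replicates 2 and 3.

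Peg10 descends from a retrotransposon and is needed for the placenta. All 14 of its sites lay at chr6:4747355-4747490, beside Sgce, which is transcribed the other way, and together they read 36.0, 25.1 and 17.1% in STD replicates 1 to 3 and 48.1, 33.1 and 3.46% in ENR replicates 1 to 3. Block 1, on the plus strand, read 22.8, 38.3 and 39.9% in STD and 37.4, 35.3 and 1.72% in ENR. Block 2, which was read towards it on the minus strand, gave 45.8, 15.3 and 0% in STD and 56.0, 31.4 and 4.76% in ENR. STD replicate 3 was thus the highest library on one strand and the lowest on the other, a difference of 39.9 points.

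Nap1l5 is a retrogene of the nucleosome assembly protein family, within an intron of Herc3. Its 23 sites, all in coding sequence at chr6:58906634-58906878, read 47.8, 41.6 and 34.1% in STD and 36.3, 56.7 and 23.3% in ENR, and the site means ran from 33.5% to 47.9%. No other locus was intermediate throughout with as many sites. Blocks 3 and 4 are the opposite strands of 1 fragment, read towards each other. ENR replicate 1 was the highest library on block 3, with 56.4%, and read 24.8% on block 4.

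**Figure D3:**
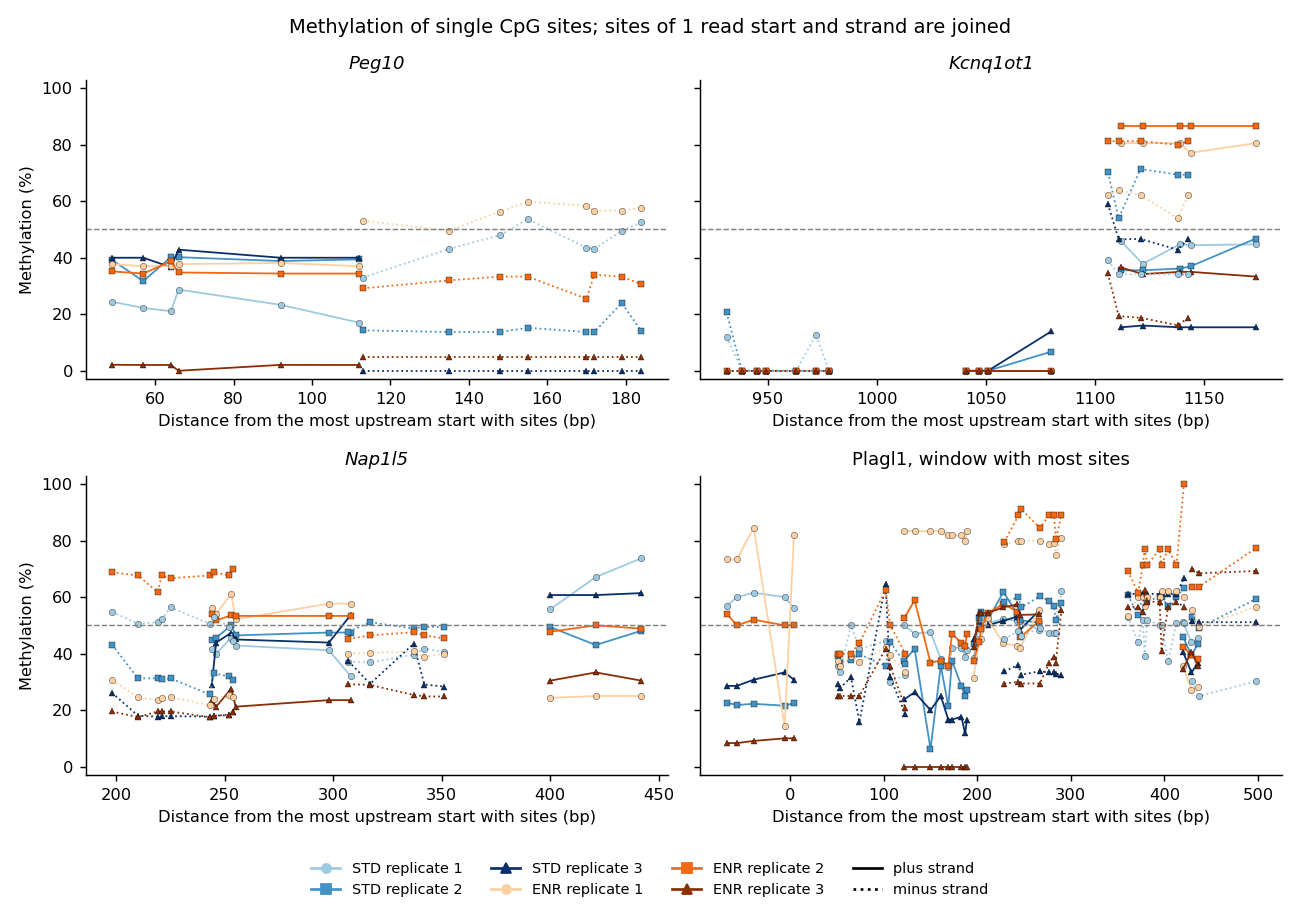
Methylation (%) of single CpG sites against distance (bp) from the most upstream start with sites, for Peg10, Kcnq1ot1, Nap1l5 and the Plagl1 window with the most sites; points of 1 library in 1 read block are joined (solid, plus strand; dotted, minus strand) and the dashed line is 50%. Lines were mostly flat along a block but changed order between blocks, and Kcnq1ot1 dropped to about 0 across a gap of 26 bp.

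Sites of the same read block had similar values within a library at most of these blocks. In 24 member blocks with at least 3 sites and a mean of 30% to 70%, the SD over the sites of a block within a library was 3.78 percentage points (median over blocks). In 9719 other autosomal blocks chosen the same way it was 19.3 points, and in the 2743 of these near a transcription start it was 19.9. Member blocks held more sites (median 5) than either of these sets (median 3). Under 5 points were 18 of the 24 member blocks (75%), 1.45% of the other autosomal blocks and 1.86% of those near a start. The clearest exception was Mest block 1, where the SD was 20.4 points and the 5 site means ran from 35.6% to 79.7%. Blocks of 18 other imprinted genes lay close to the members, with a median of 4.33 points and 25 of 44 (56.8%) under 5. Sites of a block are covered by shared reads in every one of these sets.

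Evenness along a block did not extend between mice or strands. The SD of a block over the 6 libraries had a median of 15.4 points in the 24 member blocks and of 12.9 points in the other autosomal blocks. Of 43 member CpGs covered on both strands, 23 had a mean of 30% to 70%, and at these the size of the difference between strands had a median of 18.9 points, and in 5996 other autosomal CpGs with intermediate methylation it was 19.6. Counts of sites are thus not counts of separate measurements, since 275 sites came from 62 read blocks. The number of molecules behind a block is unknown, and its part in the spread between libraries was not tested.

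**Figure D4:**
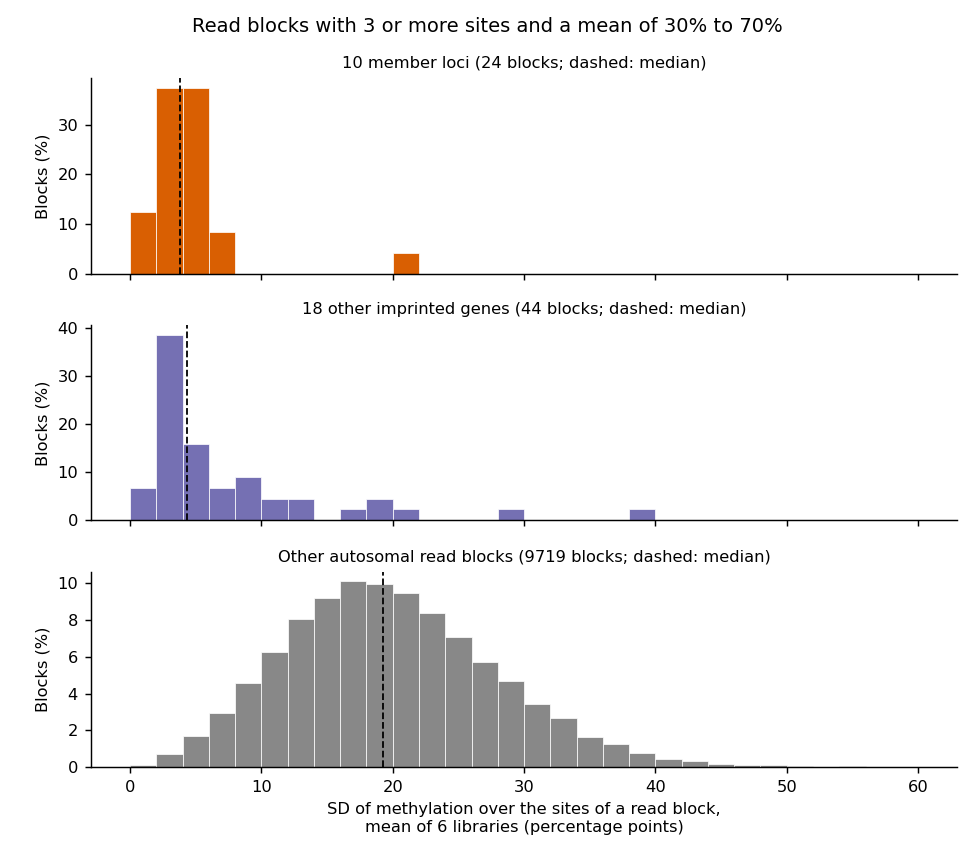
Distribution of the SD of methylation (percentage points) over the sites of a read block, averaged over 6 libraries, for the 24 blocks of the 10 loci, the 44 blocks of 18 other imprinted genes and 9719 other autosomal blocks, all with a mean of 30% to 70%; bars give the percentage of blocks. Median values were 3.78, 4.33 and 19.3 points.

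The comparison of ENR with STD asked whether housing shifted methylation at imprinted loci, and with the values as deposited it separated none of the 10. STD and ENR libraries overlapped at all 10, with 5 loci higher and 5 lower on average in ENR. With 3 mice per group the two-sided exact permutation test cannot give a p below 0.1, and over the 10 loci p ran from 0.3 at Impact to 1 at Peg10. Nnat had the largest rise in mean, from 17.0% ± 13.9 in STD to 30.9% ± 27.8 in ENR (SD, n = 3 each; exact permutation p = 0.7). Mest had the largest fall, from 45.3% ± 8.77 to 35.9% ± 15.4 (exact permutation p = 0.4). Both differences were smaller than the SD between mice of the ENR group.

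The remaining loci moved by less than 9 points in the mean. Peg3 was at 37.7% ± 16.6 in STD and 46.5% ± 22.1 in ENR, Kcnq1ot1 at 20.7% ± 5.27 and 28.9% ± 13.8, and Plagl1 at 31.0% ± 1.61 and 37.1% ± 10.9. Snrpn was at 25.01% ± 16.6 and 19.4% ± 15.0, and Impact at 8.71% ± 3.39 and 4.85% ± 3.29. For Peg10, Zrsr1 and Nap1l5 the means of the groups lay 2.13, -1.23 and -2.38 points apart (ENR minus STD).

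With all libraries, the direction at Kcnq1ot1 depended on which of its sites were summarised. The difference was 8.25 points for the mean over sites, and it was 19.5 over the 10 methylated sites and -2.00 over the 11 sites nearer the start. It was -2.16 for the 7 sites within 1 kb of the start, all of them in the unmethylated part, and -15.8 for the median over sites, which in each library equals the highest value among the unmethylated sites. After each library was centred on its mean over sites with a level of 20% to 80%, Plagl1 was 8.50 points higher in ENR and Kcnq1ot1 10.6 points higher, and the groups no longer overlapped at these loci (exact permutation p = 0.1, the smallest possible). The offset of each library, -10.4 points in ENR replicate 3, was subtracted from the whole locus mean. Yet 11 of 21 sites at Kcnq1ot1 and 22 of 81 at Plagl1 averaged below 10%, where an offset of that size cannot occur in full. No conclusion is therefore drawn from this separation. For the median over sites, Plagl1 was 1.3 points higher in ENR. At Impact the difference was -4.95 points without STD replicate 1, also without overlap (exact permutation p = 0.1), beside -3.87 with all libraries. It shrank to -1.47 points with centred libraries (exact permutation p = 0.9) and to -1.37 for the median over sites (exact permutation p = 0.5). The difference at Mest was -17.6 points without ENR replicate 1, again without overlap (exact permutation p = 0.2). Without ENR replicate 3, the 2 remaining ENR libraries lay above the 3 STD libraries at Peg3 (20.8 points higher in ENR, exact permutation p = 0.2), Plagl1 (12.3, exact permutation p = 0.1) and Kcnq1ot1 (16.0, exact permutation p = 0.1), where 0.1 is the smallest p this comparison allows. Peg10 moved to 14.5 and Nnat to 26.7 points higher, with groups that overlapped. Snrpn, Zrsr1 and Nap1l5 changed direction, to 1.95, 1.94 and 5.34 points higher in ENR. Since ENR replicate 3 was the lowest ENR library at 9 of 10 loci, leaving it out had to raise the ENR mean at those 9. The direction of these shifts was thus set by the library left out, and their p-values are no test of housing. Without either library numbered 3, the differences were 27.6 at Peg3, 21.2 at Nnat, 13.6 at Kcnq1ot1, 11.4 at Plagl1, 10 at Peg10, 1.81 at Nap1l5, -1.35 at Zrsr1, -5.66 at Impact, -6.87 at Mest and -7.62 at Snrpn. Other single libraries also set directions, since the difference was -0.549 at Peg3 without STD replicate 1 and -0.777 without ENR replicate 2. At Peg10 it was -7.80 without ENR replicate 1, -0.307 without ENR replicate 2 and -2.35 without STD replicate 3, and at Nnat it was -0.863 without ENR replicate 1. Without STD replicate 1 it was 2.76 at Zrsr1 and 0.918 at Nap1l5. For the mean over sites, Mest, Plagl1, Impact and Kcnq1ot1 kept their direction whichever single library was left out.

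Across the genome, limma with Benjamini-Hochberg adjustment passed 0 of 615152 sites that varied and 0 of 24650 start windows with at least 3 sites, at an adjusted p under 0.05 and a difference over 25 points. At an unadjusted limma p under 0.05 there were 16498 sites (2.68% of all sites), none of them among the 263 member sites tested. There were 1130 such windows (4.58% of all windows), 1 of them among the 13 member windows. Without ENR replicate 3, these counts were 23 of 263 member sites (8.75%) beside 3.31% of all sites, and 2 of 13 member windows beside 5.56% of all windows, and no adjusted p of a member was under 0.866. That library was the lowest of its group at most loci, so leaving it out by itself raises the ENR means there. The single member window with all libraries was the downstream one of Mest, which was 24.8 points lower in ENR (limma adjusted p = 0.999 over all windows; exact permutation p = 0.2), with libraries that overlapped between the groups. The other 12 member windows had the same adjusted p of 0.999. No member window separated the groups fully, a pattern that 3.8% of all windows showed with ENR higher and 5.86% with ENR lower. Over the 13 member windows the median difference was 2.13 points (7 higher, 6 lower in ENR), and over all windows it was -0.0872.

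At single sites, counts of separated groups and of large differences stood differently beside the background. Groups did not overlap at 3 of 263 member sites with ENR higher (1.14%) and at 5 with ENR lower (1.90%), where 2.39% and 3.38% of all sites tested did so. A mean difference over 25 points was found at 13 member sites with ENR higher (4.94%) and 5 with ENR lower (1.90%), against 1.02% and 1.79% of all sites. These shares are not like for like, since 53.5% of member sites but 8.54% of all 890041 sites were intermediate. Sites near 0% can hardly differ by 25 points, and sites of like level were not compared. Of the 13, 7 were in Zrsr1, 5 in Kcnq1ot1 and 1 in Nnat, and of the 5, 3 were in Mest. The largest of them was a site of Mest block 3, at 70.8, 65.4 and 40% in STD and 57.1, 0 and 0% in ENR. The 13 sites came from 4 read blocks, with 6 on block 11 and 1 on block 4 of Zrsr1, 5 on block 1 of Kcnq1ot1 and 1 on block 2 of Nnat, and the 3 Mest sites shared block 3, so they are not separate observations.

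Genes that host or neighbour the loci were read from their own sites outside the member loci. Of 12 such genes 9 had sites, and 7 of the 9 averaged below 10%, among them Blcap (5.47%), Herc3 (8.76%), Commd1 (1.06%) and Kcnq1 (4.24%), whose introns hold Nnat, Nap1l5, Zrsr1 and Kcnq1ot1. Cdkn1c, a cell cycle inhibitor in the domain of Kcnq1ot1, was intermediate at 37.0%, and Usp29 was at 92.3% over 5 sites. Among 18 other imprinted genes, all with sites, 5 averaged 30% to 70%, which were H19 (44.4%), Airn (43.6%), Peg13 (41.4%), Magel2 (45.2%) and Slc38a4 (61.4%), and 5 averaged below 10%. ENR replicate 3 was the lowest library in 9 of these 18 genes.

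A mean near 50% that was steady from mouse to mouse was found at other genes. Of 16969 autosomal start windows of other genes with at least 10 sites, 57 lay between 40% and 60% in all 6 libraries, and 0 of the 9 member windows of that size did. The windows with the smallest SD between libraries were those of Ndst2 (41.9% ± 0.794, SD over 6 libraries, 33 sites), Abcb6 (46.6% ± 1.14), Ik (56.0% ± 1.27), Ccdc194 (50.2% ± 1.29), Proser1 (50.5% ± 1.41), Irak2 (49.0% ± 1.55), Ccdc83 (57.4% ± 1.68) and Sftpc (43.1% ± 1.73). These 8 were picked for their low spread. Over all windows with a mean of 30% to 70%, the SD between libraries had a median of 11.4 points in the 6 member windows, with 6.58 at Zrsr1 the lowest, and of 9.11 points in 2163 other autosomal windows (quartiles 6.08 and 13.2). Likeness was judged on the window mean alone.

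ZFP57 recognises the hexamer TGCCGC when its CpG is methylated, and this sequence was searched on both strands. It held 9 of the 275 member sites (3.27%), against 1.08% of 576710 autosomal sites within 2 kb of a start. The 9 sites lay in Snrpn (3), Plagl1 (3), Mest, Nap1l5 and Impact (1 each), and their median level was 34.9%, beside 33.1% for all member sites. Near all autosomal starts the medians were 0% for hexamer sites and 0.667% for all sites. The most methylated was the Mest site on block 1, at 81.0, 76.2 and 66.7% in STD and 70.8, 100 and 83.3% in ENR. In RefSeq promoter sequences around a start, 6 of 13 promoters of the members (46.2%, 8 genes matched) held the hexamer, against 11.6% of 32851 promoters. A match describes the letters of the sequence and says nothing on binding.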

How the data were processed

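Reduced representation bisulfite libraries from 3 STD and 3 ENR mice were compared, grouped by their titles. The authors trimmed reads with Trim Galore, aligned them to mm10 with Bismark and kept cytosines with at least 10 reads with methylKit. The deposited values are percent methylation per CpG and library, and 0 columns were left unused. Sites were annotated with GENCODE M21. Read blocks were inferred from CCGG positions in the reference and a read length of 75 bases. Locus values are unweighted means over sites. Sites and start windows were tested with limma 3.58.1 (R 4.3.3, variance trend) on percentages, after the procedure was tested on simulated data, and loci with two-sided exact permutation tests. Reads were not used, so the study's test of read numbers could not be run. The members and lists were chosen with earlier results of these data known. All members were named, with each locus's windows, longest intermediate run, most different site and hexamer sites, and with fixed lists of neighbouring and other imprinted genes. Fragments were singled out after their values were seen. Alternatives were a 1 kb window, medians, strands or read starts averaged first, centred libraries, a logit scale, quantile normalization, no variance trend, no difference limit, a larger site minimum, a replicate block and libraries left out.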

Additional observations from a re-analysis of the deposited data

How the results depend on the processing

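No call was made for sites or start windows under any alternative (0 with each library left out), and the smallest adjusted p over settings was 0.761 for sites and 0.0855 for windows, the latter without ENR replicate 3. Direction (ENR minus STD, percentage points) reversed at Kcnq1ot1 with sites within 1 kb (-2.16) and with the median over sites (-15.8, exact permutation p = 0.1; 11 of its 21 sites lay below 10%), at Zrsr1 with the median (3.78) and with centred libraries (1.16), and at Nap1l5 with centred libraries (0.0184) and without both libraries numbered 3 (1.81); at Kcnq1ot1 both settings read only unmethylated sites, and at the others the cause was not tested. With 1 library left out, differences ran from -0.777 to 20.8 at Peg3, -15.2 to 1.95 at Snrpn, -17.6 to -2.23 at Mest, -7.80 to 14.5 at Peg10, -0.863 to 26.7 at Nnat, 2.24 to 12.3 at Plagl1, -4.95 to -1.92 at Impact, 2.76 to 16.0 at Kcnq1ot1, -5.18 to 2.76 at Zrsr1 and -11.3 to 5.34 at Nap1l5. The intermediate share was 25.1% at 40% to 60%, and 49.1% to 60% with a library left out. Same-numbered libraries correlated by 0.141, 0.0983 and 0.288 and STD replicate 2 correlated best with ENR replicate 1 (0.108), so numbers were not taken as pairs; a replicate block gave 0 calls too. Read depth per site is unknown and limits every value.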
